A study of Arabidopsis thaliana with 6 samples.

Results

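AGL15 (AT5G13790) and AGL18 (AT3G57390) encode closely related MADS-domain transcription factors that delay flowering. They were examined as possible binding places of SOC1, a MADS-domain factor that promotes it. The genes were taken by their locus identifiers, and the regions belonging to them were those whose centre overlapped the gene, lay up to 3000 bp upstream of its start or lay up to 1000 bp downstream of its end. Of 24032 listed regions, 4 met this rule, 2 at each gene. The genes were chosen by their read counts and FDR values in tagged against untagged chromatin, which were known beforehand. The values of that comparison are therefore given as a description, with no test.

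MADS-domain proteins bind DNA as dimers at short elements called CArG boxes, and members of the family often bind the promoters of other members. AGL15 and AGL18 act redundantly as floral repressors in the seedling, where loss of both brings flowering forward, and AGL15 is also known for its accumulation in embryos and for promoting somatic embryogenesis. SOC1 is a floral integrator that is switched on at the shoot apex when plants move from short to long days.

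Chromatin immunoprecipitation followed by sequencing was carried out on shoot apices with an antibody against GFP. The tagged plants carried SOC1p:gSOC1-GFP, a genomic SOC1 copy fused to GFP under the SOC1 promoter (line 7), and the control plants carried SOC1p:gSOC1, the same genomic copy without GFP (line 9). All plants were soc1-2 mutants, so the controls also held a SOC1 transgene, and each group was a single transgenic line. Growth was in short days for 15 days, followed by 3 days in long days, and apices were taken at zeitgeber time 4, that is 4 h after lights-on. Each group had 3 libraries with 41073 to 663108 reads in the listed regions, and replicate 1 was the deepest in both groups. Whole apices were used, so more cells with bound SOC1 and more binding per cell cannot be told apart.

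By the gene starts that the deposited distances imply, SOC1-GFP chromatin was enriched at the start of AGL18 and just upstream of AGL15. This was at 1 region per gene. In the authors' deposited table, these 2 of the 4 regions had a false discovery rate (FDR) below 0.05 in all 3 replicates, as did 1.12% of all listed regions. The AGL18 promoter region was centred 86 bp upstream of the gene on chromosome 3, at chr3:21233446-21233783 in TAIR10. It was 338 bp long and ran from 255 bp before the gene start to 82 bp past it, so that it covered the start itself. The AGL15 promoter region was centred 234 bp upstream on chromosome 5, at chr5:4450899-4451257. It was 359 bp long, and its whole length lay upstream, ending 55 bp before the gene start. Gene starts were recovered from the distances in the deposited table. For AGL18 2 regions gave the same start, and for AGL15 the start rests on 1 region. These starts differ from those of the RefSeq gene models, where AGL18 is longer. The position of the AGL18 region relative to the gene start therefore depends on the annotation.

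**Figure D1:**
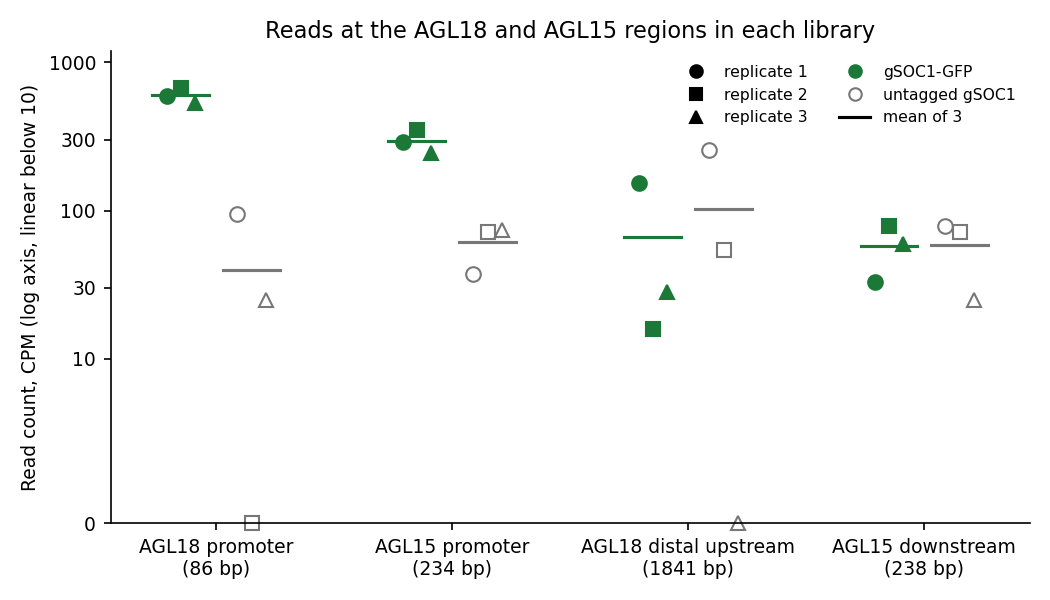
Read counts as CPM (counts scaled to a common effective library size) at the 4 regions of AGL18 and AGL15 in each of the 6 libraries (y axis logarithmic above 10; the distance of the region's centre from the gene start, or from the gene end for the downstream region, is given under its name). At both promoter regions every gSOC1-GFP point lies above every untagged point, whereas at the other 2 regions the groups overlap.

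At the AGL18 promoter, gSOC1-GFP replicates 1, 2 and 3 had 325, 128 and 151 reads. The untagged replicates had 23, 0 and 2 reads there. As CPM, that is counts scaled to a common effective library size, these were 598, 672 and 531 in tagged chromatin and 94.7, 0 and 24.7 in untagged chromatin. The tagged values were close to each other (600.3 ± 70.0, SD, n = 3), while the untagged values were scattered and highest in replicate 1. The lowest tagged library still lay 5.61 times above the highest untagged library.

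At the AGL15 promoter, 158, 67 and 70 reads came from gSOC1-GFP replicates 1, 2 and 3, and 9, 4 and 6 came from the untagged ones. The scaled values were 291, 351 and 246 CPM in tagged chromatin and 37.1, 71.7 and 74.1 in untagged chromatin. Here the untagged values were alike in the 3 replicates, with replicate 1 the lowest, and the groups did not overlap. Groups that do not overlap in this direction were found at 8.48% of all listed regions, and the 2 promoter regions had been chosen for such a difference.

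Log2 enrichment was the log2 difference between the tagged and the untagged library of the same replicate number, with a prior count of 1. At the AGL15 promoter it was 2.83, 2.23 and 1.68 in replicates 1, 2 and 3, a mean of 2.25 ± 0.58 (SD, n = 3). At the AGL18 promoter it was 2.61, 7.30 and 4.21, a mean of 4.70 ± 2.39 (SD, n = 3). The untagged library of replicate 2 held 0 reads at AGL18, so the value of that pair depends on the prior count. With a prior count of 10 the AGL18 mean was 3.12 ± 0.92 (SD, n = 3). Set against a floor of 3 reads in that library, the AGL18 region was 12.5-fold higher in tagged chromatin in replicate 2. This bound depends on the floor, and the exact 95% counting interval of that pair began lower, at 10.01. Without any prior count and with that pair at its bound, the AGL18 mean was 3.58 and the AGL15 mean 2.33 on the log2 scale.

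**Figure D2:**
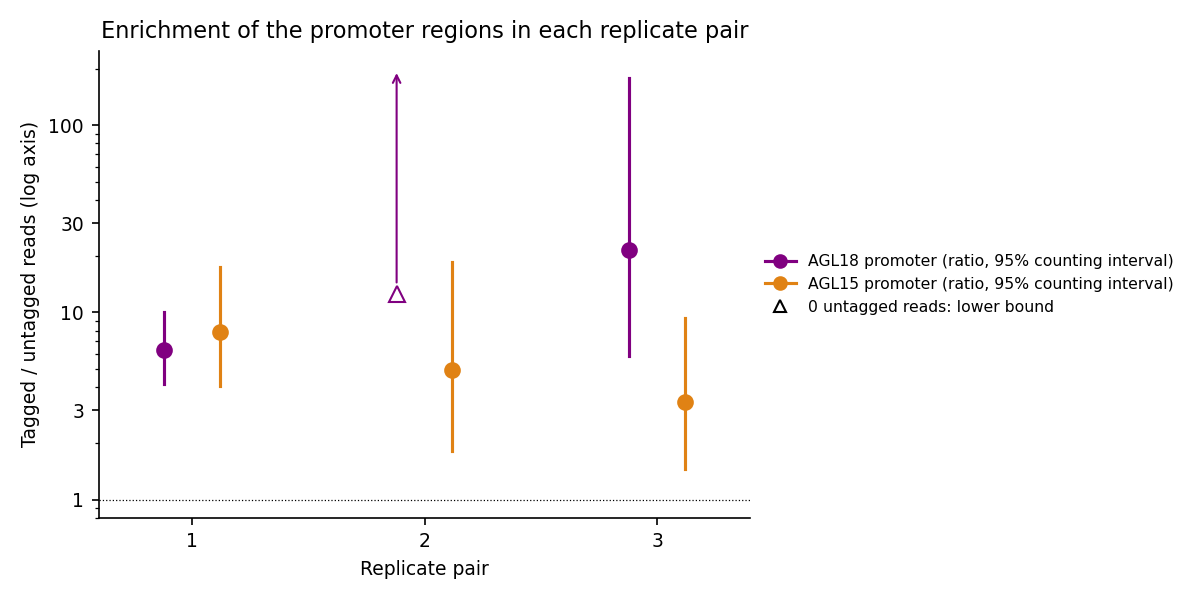
Ratio of tagged to untagged reads, scaled to effective library size, at the AGL18 and AGL15 promoter regions in the 3 replicate pairs (logarithmic axis; lines are exact 95% counting intervals; the open triangle is a lower bound against 3 reads). All ratios lie above 1, and within each pair the ranges allowed for the 2 genes overlap. At the triangle the exact counting interval, not drawn, begins lower, at 10.01.

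AGL18 stood above AGL15 by enrichment in replicates 2 and 3 but not in replicate 1. In replicate 1 the ratio of tagged to untagged reads was 6.31 at AGL18, with an exact 95% counting interval of 4.14 to 10.1. For AGL15 it was 7.85, with an interval of 4.03 to 17.5. In replicate 2 AGL15 had a ratio of 4.90 (1.83 to 18.5), and the interval at AGL18 had a lower end of 10.01 and no upper end. In replicate 3 the ratios were 21.5 (5.85 to 179) at AGL18 and 3.32 (1.45 to 9.37) at AGL15. The intervals of the 2 genes overlapped in each pair, and the difference within a pair was not tested, since the genes were chosen on this contrast. The log2 difference, AGL18 minus AGL15, was -0.23, 5.07 and 2.53 in the 3 pairs, a mean of 2.46 ± 2.65 (SD, n = 3) that did not exceed its own spread. Without replicate 2 the mean was 1.15 ± 1.95, without replicate 3 it was 2.42 ± 3.75, and without replicate 1 it was 3.80 ± 1.80 and then exceeded its SD (n = 2 pairs each). These intervals cover counting error only, and reads amplified by PCR without molecular identifiers are not independent molecules.

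The tagged libraries alone ordered the genes the same way each time. AGL18 had 2.06, 1.91 and 2.16 times the reads of AGL15 in gSOC1-GFP replicates 1, 2 and 3. The exact 95% counting intervals were 1.70 to 2.50, 1.41 to 2.61 and 1.61 to 2.91. Per base of region the ratios were 2.18, 2.03 and 2.29. In length-scaled levels, the tagged libraries had 1776 ± 207 CPM per kilobase at AGL18 and 825 ± 147 at AGL15 (SD, n = 3). The untagged libraries held too few reads to give an order in each replicate. There AGL18 had 2.56 times the reads of AGL15 in replicate 1 (95% counting interval 1.14 to 6.28), the same order as in tagged chromatin. It had 0.333 times the reads in replicate 3 (0.033 to 1.86). In replicate 2 it had 0 against 4 reads, with an interval that reached 1.51. The intervals of replicates 2 and 3 include equal reads, so they show no order.

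The other 2 regions of these genes were not enriched in every pair. The distal upstream region of AGL18 lay 1841 bp before the gene, at chr3:21231721-21231998, and only 130 bp downstream of the neighbouring gene AT3G57380. Its tagged libraries had 84, 3 and 8 reads and its untagged libraries 62, 3 and 0, which are 155, 15.7 and 28.2 against 255, 53.8 and 0 CPM. The groups overlapped there, and replicate 1 was the highest library of each group. Its log2 enrichment was -0.71, -1.54 and 2.92 in the 3 pairs, and the untagged count of 62 was above that of 93.0% of all listed regions in that library.

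The downstream region of AGL15 lay 238 bp past the gene end, at chr5:4448573-4448978, and 129 bp upstream of AT5G13780, the next gene along. Its tagged libraries had 18, 15 and 17 reads and its untagged ones 19, 4 and 2, or 33.1, 78.7 and 59.8 against 78.2, 71.7 and 24.7 CPM. The groups overlapped, with a mean log2 enrichment of 0.04 ± 1.15 (SD, n = 3). In the authors' deposited table its FDR was 0.979, 0.402 and 0.183 in replicates 1, 2 and 3, and 0.183 was the value nearest to the threshold from outside among the 2 regions that did not pass. The nearest from inside among the 2 that passed was the AGL15 promoter in replicate 3, at 2.28e-05 in the authors' deposited table. By distance, the AGL18 region nearest to the upstream limit from inside was the one at 1841 bp, and the next listed region upstream, outside the limit, lay at 3924 bp. Past the end of AGL18 the nearest listed region lay at 2442 bp, beyond the downstream limit, with 8, 1 and 6 tagged and 3, 2 and 0 untagged reads.

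**Figure D3:**
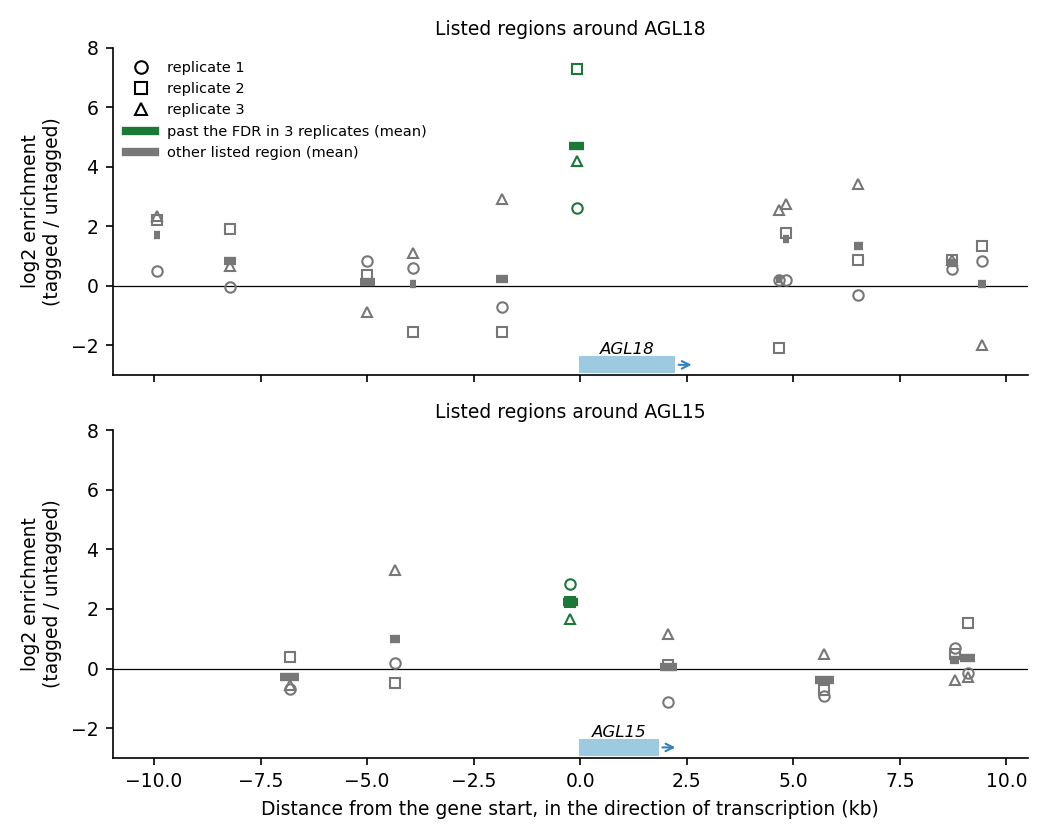
Log2 enrichment of every listed region within 10 kb of the start of AGL18 and of AGL15, against distance from the gene start in the direction of transcription; symbols are the 3 replicate pairs, thick bars show the mean and the length of the region, and the blue box is the gene. The region past the FDR in all replicates is the one at the start of AGL18 and the one just upstream of AGL15. The means of the others run from 0.06 to 1.70 around AGL18 and from -0.39 to 1.01 around AGL15.

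Each promoter region stood alone in its neighbourhood. Within 10 kb of the AGL18 start 11 regions were listed and 1 passed the FDR in all replicates. The means of the other regions had a median of 0.50 on the log2 scale and reached 1.70 at most. Around AGL15 7 regions were listed and 1 passed, and the others had a median of 0.16 and a maximum of 1.01. The region with the maximum around AGL18 had 0 untagged reads in every replicate, and that around AGL15 had 0 in replicate 3. Both maxima therefore depend on the prior count. By the gene starts and ends that the deposited distances imply, no listed region had its centre inside either gene. For AGL18, which is longer in the RefSeq gene models, this depends on the annotation. Read number alone did not mark the AGL15 promoter region in replicate 1. At the regions 6816 bp upstream and 5726 bp downstream of the AGL15 start, gSOC1-GFP replicate 1 had 187 and 168 reads, more than at the AGL15 promoter, but the untagged library of that replicate had 135 and 143. In gSOC1-GFP replicates 2 and 3 the AGL15 promoter had the most reads of the listed regions within 10 kb. The AGL18 promoter had the most in its own neighbourhood in every gSOC1-GFP replicate.

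The gene nearest to each promoter region was the repressor itself. The AGL15 promoter region also lay 759 bp downstream of PPH (AT5G13800), which encodes pheophytinase, an enzyme of chlorophyll breakdown, and was assigned to that gene too. The AGL18 promoter region had AT3G57380 on its other side, 1885 bp away and outside the downstream limit, and so was assigned to AGL18 alone.

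**Figure D4:**
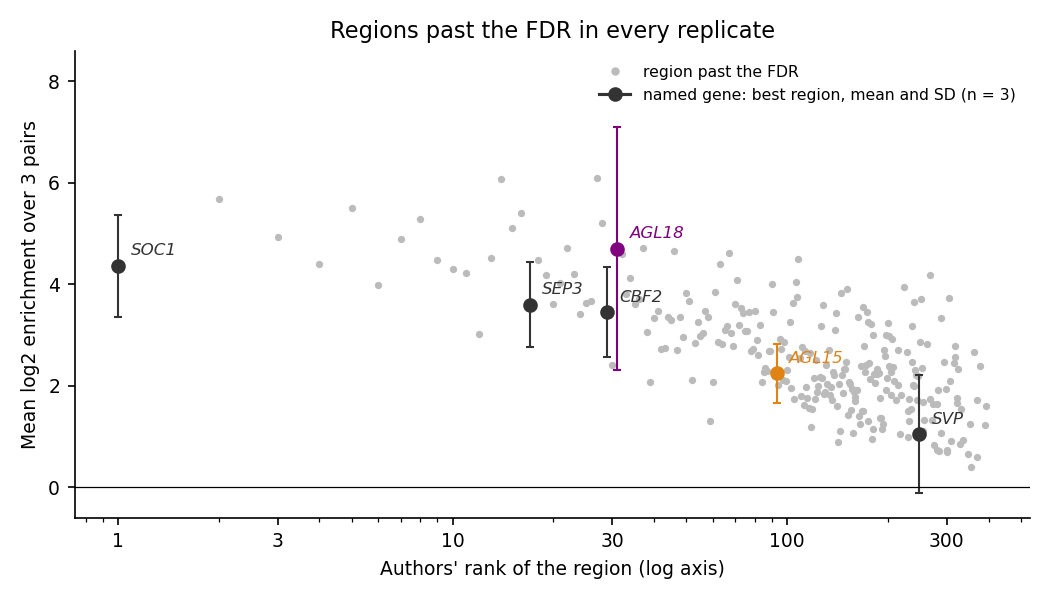
Mean log2 enrichment over 3 replicate pairs against the authors' rank for the 270 regions past the FDR in all replicates (logarithmic rank axis); AGL18, AGL15 and the 4 genes of the AGL15 and AGL18 network with such a region are shown with their SD. AGL18 lies near the top of the points, with the widest error bar of the named genes, and AGL15 near the middle.

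Among the 270 regions that passed the FDR in all replicates, AGL18 ranked high and AGL15 near the middle. The authors' deposited table placed the AGL18 promoter at rank 31 and the AGL15 promoter at rank 93. By mean log2 enrichment 12 of the 270 regions lay above AGL18 and 157 lay above AGL15, against a median of 2.43. The place of AGL18 depended on the replicate, since 97 regions exceeded it in replicate 1, 2 in replicate 2 and 25 in replicate 3. For AGL15 88, 179 and 203 regions did so. In tagged CPM, 34 and 104 of the 270 regions lay above AGL18 and AGL15. In untagged CPM, AGL15 with 61.0 ± 20.7 was above 67.8% of the 270 regions and AGL18 with 39.8 ± 49.1 was above 40.7% (SD, n = 3 libraries). Without replicate 1 the untagged mean of AGL18 was 12.4 CPM, so its place in that order rests on the untagged library of replicate 1. An untagged count of 0 in replicate 2, as at AGL18, occurred at 14.8% of the 270 regions and at 32.2% of all listed regions.

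The 2 genes differed in their pattern over the 3 pairs, but AGL18 lay far from most other regions too. By Euclidean distance over the 3 log2 enrichments, AGL18 and AGL15 were 5.67 apart, and 263 of the other 268 regions were closer to AGL15 than AGL18 was. Conversely, 174 of them were closer to AGL18 than AGL15 was. The median distance to the 268 regions was 5.22 from AGL18 and 2.40 from AGL15. The distances of AGL18 depend on its value in replicate 2, which was set against 0 untagged reads. The 5 regions most like AGL18 were at distances from 1.11 to 2.06. They lay near AT1G72500, at a place on chromosome 2 with no gene assigned, upstream of TZP, upstream of AT1G10740 and AT1G10745, and upstream of SOC1 itself. Of these, 4 shared with AGL18 an untagged count of 0 in replicate 2, and the SOC1 region had 5 reads there. The 5 regions most like AGL15 were at distances from 0.28 to 0.44. They lay near AT5G55960 and AT5G55970, upstream of the kinase gene STN7 and of RAV2 (TEM2, a repressor of FT), upstream of CCR1 (AT3G09780) beside the ubiquitin gene UBQ8, upstream of the floral organ identity gene AP3 beside emb1967, and upstream of the transporter gene ABCC3. The likeness rests on 3 points that share libraries, and it is a description.

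Genes that act with AGL15 and AGL18, or are known as their targets or regulators, were read from a list of 24. Of these 21 had a listed region and 4 had one past the FDR in all replicates, all with a mean log2 enrichment above 0; among all 22909 genes with a listed region the share was 1.75%. With an upstream window of 1000 bp, 2 genes of the list had such a region. The median log2 enrichment of the best-ranked region per gene was 1.02 for the 21 genes and 0.42 for all genes. The list was drawn up with earlier results of these data known. These shares and medians are therefore a description, and no enrichment of the list is read from them. The 4 genes were SOC1, SVP (a repressor that partners other MADS proteins), SEP3 (a cofactor of floral organ complexes) and CBF2 (a cold-response activator). Both lines carried a SOC1 transgene under the SOC1 promoter, so reads upstream of SOC1 may also come from it. Its copy number in each line is not known here. The SEP3 region lay 2725 bp upstream, nearer to AT1G24265. SVP had log2 enrichments of 0.12, 2.34 and 0.68 in the 3 pairs, below AGL15 in replicates 1 and 3, and its region lay 2248 bp upstream, nearer to AT2G22530.

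The remaining flowering genes of the list had no region past the FDR in all replicates, as was the case for most genes with a listed region (1.75% had one). FT, the long-distance flowering signal, had a region inside the gene with a log2 enrichment of 1.23 ± 0.52, and FLC, the vernalization-controlled repressor, had one 105 bp upstream with -0.20 ± 0.92. AGL24, a MADS promoter of flowering, had 1.02 ± 2.21, and the meristem identity genes AP1 and FUL had 0.03 ± 0.87 and 0.52 ± 0.54 (SD, n = 3 pairs throughout). The AGL24 region lay 698 bp downstream of that gene, and nearer to AT4G24530, at 253 bp upstream. TSF, FLM and the embryo regulator FUS3 had no listed region in the windows used.

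A group of 10 genes on the list stood for the embryo and hormone side of AGL15 function, and the cold-response gene CBF2 was placed in it. Of these 9 had a listed region, and only CBF2 had one past the FDR in all replicates. Over all genes with a listed region 1.75% had one that passed. The lack of a passing region at the other genes of this group is therefore not read as a result. The embryo regulators LEC1, LEC2 and ABI3 had log2 enrichments of 0.69 ± 1.05, -0.04 ± 1.61 and 0.79 ± 1.80, and BBM, a regulator of embryo development, had 1.04 ± 1.12. The LEC2 region lay 667 bp downstream of the gene, and those of LEC1 and BBM lay nearer to other genes. The gibberellin enzyme genes GA2OX6 and GA3OX2 had 1.36 ± 1.64 and 1.58 ± 1.60. SERK1, a receptor kinase gene, had 1.71 ± 1.95, the highest mean of the 17 listed genes that did not pass, in a region 7 bp upstream of AT1G71840. The untagged libraries held 0 reads in replicates 2 and 3 at FT, GA3OX2 and BBM, in replicate 2 at SERK1, GA2OX6 and ABI3, and in replicate 3 at AGL24. The means of these genes, and their order, therefore depend on the prior count. The lowest of the 17 was IAA30, an auxin response gene, at -0.74 ± 1.66. The corepressor genes TPL and SAP18 had 1.18 ± 1.02 and 0.56 ± 1.13, and the microRNA genes MIR156A and MIR156C had -0.25 ± 0.75 and 0.43 ± 1.67.

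A fit over all regions gave lower values for AGL18 than the mean of its pairs. In edgeR, the log2 fold change of the AGL18 promoter was 3.72 without the replicate number as a block and 3.81 with it, and that of the AGL15 promoter was 2.31 and 2.36. Leaving out the untagged library of replicate 1, the one with 23 reads, gave 5.36 for AGL18 and 2.03 for AGL15. Leaving out that of replicate 2, with 0 reads, gave 3.25 and 2.45. Without the block edgeR called 0 of the 4 regions after Benjamini-Hochberg adjustment, where 1 had an unadjusted p under 0.05, as did 762 of all 24032 regions, and 0% of all regions were called. With the block it called the AGL18 promoter, as it did 0.379% of all regions, and DESeq2 called the AGL18 promoter and 1.61% of the regions it adjusted. Since these calls rest on the contrast for which the genes were chosen, nothing further is read from them.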

How the data were processed

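Groups and replicate numbers came from the sample titles. Nothing in the labels says that libraries of a group were separate cultures, so their spread may be technical. The authors deposited raw read counts for each region in each library, per the file headers. The authors' q-value (FDR) column set the tagged against the untagged library of each replicate, by a test not named in their column definitions. The deposited log2 column held the log2 rank product of the 3 FDR values and their rank score its order, and both were only used to order regions. Coordinates are on TAIR10 (per the submitters' processing notes). Not given in the sources used here are the aligner, the caller of the regions, any filter on reads, and whether starts count from 0 or 1. Ends and centres were computed from start and length. DNA was size-selected at 150 to 400 bp and amplified for 18 cycles, per the labels' protocols.

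Scaled counts used TMM effective library sizes over the 24032 regions (edgeR 4.0.16, R 4.3.3), and CPM values are relative to these sizes. For log2 enrichment the prior count was 1, in proportion to library size. The quasi-likelihood fit was run on all regions, and DESeq2 1.42.0 was an alternative. Counts with known changes were simulated from the model with the replicate block, with a dispersion shared by all regions. On these the fit without the block recovered the fold changes but called none of the changed regions. Where such replicate effects are present, its lack of calls therefore says little. The fit with the block called part of them, but the simulation favours that fit by its construction. It also lacks the dispersion of single regions, so it does not decide between the fits. Ratio intervals are exact (Clopper-Pearson, SciPy 1.17.1) at 95%. Symbols came from the RefSeq gene table (TAIR10.1, names only), which held 98.6% of the assigned genes. Named were both genes, the genes sharing their regions, the 5 most similar regions of each, listed network genes and regions next to a threshold; FLC, FT and the other genes without a passing region were named after their values were seen. The genes, the lists and the tests were chosen with earlier results of these data known.

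Deviations from the group means correlated at 0.498, 0.123 and 0.139 between same-numbered libraries. All exceeded the bound of 0.1, so log2 enrichments and ratios were taken within pairs by the numbers in the titles. The main edgeR fit and DESeq2 did not use this pairing, and the fit with the replicate block was an alternative. The margin was narrow for replicates 2 and 3, and tagged replicate 3 with untagged replicate 2 gave 0.131.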

Additional observations from a re-analysis of the deposited data

How the results depend on the processing

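The size of the mean log2 enrichment at both promoter regions moved with the settings. Its sign is not read as support, since the regions were chosen on this contrast. The mean ranged from 3.12 (prior count of 10) to 5.44 (prior count of 0.25) at AGL18 and from 1.72 to 2.31 at AGL15 under the same 2 settings, with the other scalings between these. With each replicate left out it ranged from 3.41 to 5.75 at AGL18 and from 1.95 to 2.53 at AGL15. These means had to be above 0, because all 3 pairs were above 0 at both regions. Both promoter regions also passed at an FDR of 0.01. That they passed at 0.1, with any replicate left out and with a 1000 bp upstream window was fixed by the main result. Those settings therefore add no information on these regions, which were chosen on the same FDR values. With at least 2 passing replicates required, 630 regions passed, and with each replicate left out 295 to 468 did, since fewer replicates must then pass. The 1000 bp window left 2 network genes with a passing region. Over the whole table edgeR called 0 regions, against 91 when the replicate block was added, 80 with a filter on low counts and 94 in DESeq2. The number ranged from 0 to 86 with libraries or replicates left out, and was 86 without replicate 1 and 51 without its untagged library; the cause was not tested. The block changed no call other than that of AGL18 among the 4 regions. By distance over the 6 scaled counts, 4 of the 5 regions most like AGL18 and 2 of the 5 most like AGL15 were kept. The alternatives for the network list, the difference between the genes, the untagged levels and the calls of single regions were chosen after seeing the data. The planned search for CArG boxes was not run, as no genome or promoter sequence was used here. The depth of the untagged libraries, with 0 to 23 reads at the promoter regions, limits each ratio.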
